A study of Mus musculus with 24 samples.

Results

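Reactive astrocyte genes are transcripts that astrocytes induce after injury, infection or inflammation of the brain, and 32 of them were followed here among the 49315 genes listed. The members were taken by name from the published marker sets, with 9 pan-reactive genes, 11 A1 genes, 11 A2 genes and C3. They were measured by sequencing of polyadenylated RNA in primary astrocytes from the cortex of wild type C57BL/6J mouse embryos at E18.5. All embryos of one pregnant mouse were pooled for an isolation, and the cells were used in passage 1. Cultures received 0.1 Gy or 2 Gy of X-rays (200 kV) or a mock irradiation (0 Gy) and were harvested 6 h or 24 h later, with 4 libraries in each of the 6 groups, which carry the replicate numbers 1 to 4. Nothing in the labels ties a number to a named culture, so p-values measure the spread between these libraries.

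Reactive astrocytes differ with their trigger. In the usual scheme, microglial interleukin 1 alpha, tumor necrosis factor and complement C1q drive the A1 genes, many of which serve antigen presentation, the interferon response and complement, whereas ischemia and cytokines of the interleukin 6 family drive the A2 genes, and pan-reactive genes rise in both settings. C3, the central complement component, is widely used as an A1 marker, but microglia and other cells can make several of these transcripts as well.

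Some promoters of these genes carry letters that match sites of the transcription factors known from this response. The 14 members that were lowest in replicate 2 of every group comprised 7 with such a match, 4 without one (C3, Lcn2, Ptx3 and S1pr3) and 3 with no promoter in the table. Outside this set, Tgm1, Tm4sf1, Sphk1 and Emp1 had a match as well, and Sphk1 and Emp1 were highest in replicate 2. The share of all genes with any such match was not computed, so the 7 have no background, and a link to replicate 2 was not tested. The 30 bases around one such match are shown for 4 of the 7, with the match in capitals, from RefSeq promoters on GRCm38.p6 and read 5′ to 3′ on the strand of the gene. H2-D1 (chr17:35262913-35262942, plus strand) holds 2 overlapping matches to the NF-kB consensus, H2-T23 (chr17:36032806-36032835, minus strand) and Gbp2 (chr3:142620594-142620623, plus strand) hold an interferon-stimulated response element core (ISRE core, GAAANNGAAA on either strand), and Steap4 (chr5:7960345-7960374, plus strand) holds a STAT site (TTCNNNGAA).
H2-D1: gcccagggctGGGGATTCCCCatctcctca
H2-T23: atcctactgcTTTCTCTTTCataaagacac
Gbp2: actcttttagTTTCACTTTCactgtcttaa
Steap4: aggttgaactcTTCCCGGAAactttgcttc
The sites of H2-D1 and H2-T23 lie inside the bounds listed for these genes, upstream of a RefSeq start, and the stretch shown for Gbp2 spans the listed start of its gene, with the site itself just inside. Tm4sf1, a membrane protein of the tetraspanin superfamily which was called at 24 h after the correction for base composition and, for 2 Gy, in the block over all 24 libraries, is shown with the whole window of 250 bases before its start (chr3:57301989-57302238, minus strand), with an ISRE core from −219 to −210 and an NF-kB match from −28 to −19 in capitals.
Tm4sf1: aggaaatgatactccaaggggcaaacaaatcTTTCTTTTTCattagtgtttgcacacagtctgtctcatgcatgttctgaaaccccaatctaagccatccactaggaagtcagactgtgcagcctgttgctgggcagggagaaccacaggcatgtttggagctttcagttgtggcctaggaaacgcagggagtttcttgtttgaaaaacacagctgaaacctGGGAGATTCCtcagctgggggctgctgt
Promoters were found for 26 of the 32 members, in 35 windows. An ISRE core was present in 5 of them (H2-T23, Gbp2, Srgn, Tgm1 and Tm4sf1), against 3.46% of the 27025 genes with a promoter. STAT sites were present in 5 members (Steap4, Psmb8, Tgm1, Sphk1 and Emp1), against 8.13% of genes. NF-kB matches were present in 4 members (Steap4, H2-D1, Sphk1 and Tm4sf1), against 8.23%, and AP-1 sites (TGANTCA) in 4 (Cp, Gbp2, Sphk1 and Emp1), against 7.82%. The same windows were searched for the heat shock element and the CArG box. Each was present in 0 members, against 0.514% and 1.62% of genes. All matches describe letters in a window and no binding was measured.

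Of the 32 members, 31 passed edgeR's filter on low counts in every comparison. Slc10a6, a transporter of steroid sulfates, was at 0 counts in 20 of the 24 libraries and never above 1 count, and it was not tested. Levels are given in CPM, counts scaled by the size of the library after TMM normalization, and between genes only per kilobase of exon. On that scale the mean level over the 24 libraries was highest for C3 (191 CPM per kb), H2-D1 (151), a classical MHC class I heavy chain, and Hspb1 (86.6), a small heat shock protein. It was lowest for Slc10a6 (0.00361), Amigo2 (0.512), an adhesion protein, and Aspg (0.799), an asparaginase. All 3 classes were thus transcribed in mock-irradiated cells, with the exception of Slc10a6.

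The libraries of replicate 2 stood apart in every group, and this touched the members more than dose did. Total counts ranged from 14742855 to 38194800 over the 24 libraries. The summed level of 14 microglial markers was from 311 to 379 CPM in the 6 libraries of replicate 2 and from 2030 to 3640 CPM in the other 18, and all 14 markers were lowest in replicate 2 in all 6 groups, although none was at 0 in any library. The summed level of 12 astrocyte markers differed less, with 2460 to 3110 CPM against 2820 to 3520 CPM. Summed levels of 14 neuronal markers were from 643 to 762 CPM in replicate 2 and from 446 to 606 CPM otherwise, those of 12 markers of the oligodendrocyte lineage from 624 to 898 CPM and from 410 to 789 CPM, and those of 14 markers of fibroblasts and vessels from 4190 to 5020 CPM and from 3540 to 7860 CPM. No member is in the list of microglial markers. In bulk samples, fewer cells of a type and less RNA per cell cannot be told apart.

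Among the members, 14 of 32 (43.8%) were lowest in replicate 2 in all 6 groups, against 12.2% of the 17353 genes tested over all libraries. These were 7 of 11 A1 genes, 4 of 9 pan-reactive genes, 2 of 11 A2 genes and C3. Levels of C3 ranged from 53.1 to 74.6 CPM in replicate 2 and from 622 to 2100 CPM in the other libraries, a ratio of the medians of 21.9. Lcn2, a secreted protein that binds bacterial siderophores, ranged from 3.14 to 4.78 CPM and from 50.5 to 210 CPM (ratio 20.8). Steap4, a metalloreductase, followed with a ratio of 11.5. No library of replicate 2 reached any other library for these 3 genes.

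Genes of antigen presentation and the interferon response made up most of the A1 members in this set. The median in the other libraries exceeded that in replicate 2 by a factor of 9.44 for H2-T23, a non-classical MHC class I chain, 8.05 for Gbp2 and 6.47 for Iigp1, both interferon-induced GTPases, 7.79 for Psmb8, an immunoproteasome subunit, and 5.68 for H2-D1. For Srgn, a proteoglycan of secretory granules, the factor was 4.69, and for Serping1, the inhibitor of complement C1, it was 2.35. Of the A2 genes, Cd14, the co-receptor for lipopolysaccharide, showed a factor of 5.94 and Ptx3, a pentraxin, 2.89. Cp, the ferroxidase ceruloplasmin, and S1pr3, a receptor for sphingosine-1-phosphate, completed the set with 4.3 and 1.62. The opposite order held for 3 A2 genes, Sphk1, the kinase that makes sphingosine-1-phosphate, Cd109, a surface protein, and Emp1, a membrane protein, which were highest in replicate 2 in all 6 groups (9.38% of members and 10.8% of genes). The part of the microglial markers in these differences was not tested.

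**Figure D1:**
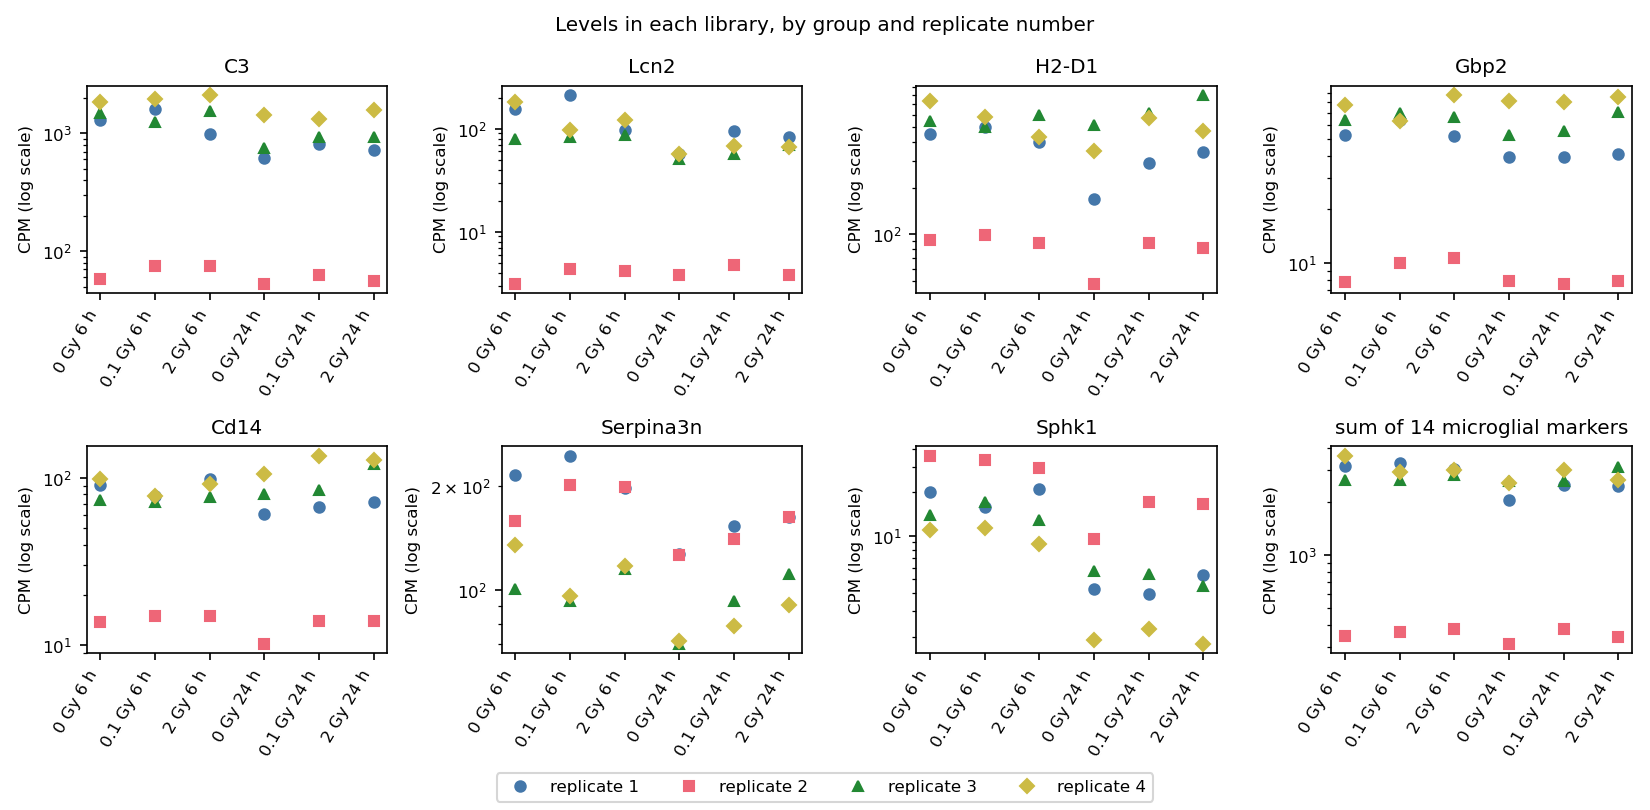
Level of 7 members and summed level of 14 microglial markers in each of the 24 libraries (vertical axis, CPM on a log scale) by group, with a symbol for each replicate number. For C3, Lcn2, H2-D1, Gbp2, Cd14 and the microglial sum, the libraries of replicate 2 lie below the other 3 in every group, whereas for Sphk1 they lie above them and for Serpina3n they lie among them.

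The plot of levels by library shows that the distance between replicate 2 and the other numbers was kept at both times and all doses for C3, Lcn2, H2-D1, Gbp2 and Cd14. As a share of the variance of log2 CPM over the 24 libraries, the replicate number within a time took a median of 67.1% for the 31 members, time 17.3% and dose 2.32%. Over all genes tested, the medians were 50.2%, 12.8% and 7.3%. The A1 genes had the largest share by replicate (median 92.5%), whereas it was 57.9% in the pan-reactive genes and 53.2% in the A2 genes. Time took a median of 33.1% in the pan-reactive genes, 31.5% in the A2 genes and 3.61% in the A1 genes. Most of the variance lay with time for Fkbp5 (80.6%), Cd44 (79.3%), Ggta1 (75.2%), Tm4sf1 (69.9%), Emp1 (63.4%), Hspb1 (55.2%) and Sphk1 (52.4%), and no member had its largest share with dose.

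Between 6 h and 24 h, few members were called without the pairing, and most of those were lower at 24 h. The median log2 fold change of the 31 members tested was −0.58 at 0 Gy, −0.35 at 0.1 Gy and −0.33 at 2 Gy, while that of all genes tested lay between −0.02 and 0. In the unpaired edgeR test, 4 members were called at 0 Gy (adjusted p under 0.05, 6.7% of all genes), 6 at 0.1 Gy (9.9%) and 4 at 2 Gy (6.95%). Fkbp5 fell and Ggta1 rose at each dose. The log2 fold change was below 0 at every dose for 22 of 31 members and above 0 at every dose for 6. At 0 Gy, where the median was lowest, the summed microglial markers at 24 h were 0.634, 0.902, 0.993 and 0.705 times those at 6 h in replicates 1 to 4. Mitochondrial transcripts took 1.25, 2.42, 3.07 and 1.96% of counts at 6 h and 2.17, 4.97, 1.9 and 3.65% at 24 h. The correlation of GC content with the log2 fold change at 0 Gy was −0.472 across the 31 members, which share their libraries, and −0.316 across all genes. The part of these in the falls at 0 Gy was not tested.

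Among the pan-reactive genes, Cd44, the hyaluronan receptor, had 651, 701, 818 and 443 CPM in replicates 1 to 4 at 0 Gy and 6 h and 329, 497, 290 and 261 CPM at 24 h. At 0.1 Gy it had 670, 738, 882 and 574 CPM at 6 h and 313, 329, 242 and 200 CPM at 24 h, and at 2 Gy 650, 814, 756 and 636 CPM and 280, 355, 183 and 200 CPM. The 2 times did not overlap in irradiated cultures, and at 0 Gy only the lowest library at 6 h lay within the range of 24 h. It fell by 1.42 ± 0.20 (SE) on the log2 scale at 0.1 Gy (adjusted p = 0.00543, edgeR) and by 1.49 ± 0.23 at 2 Gy (adjusted p = 0.00934, edgeR), and the value at 0 Gy was −0.94 ± 0.25 without the block (adjusted p = 0.0553, edgeR).

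Hspb1 stood between 126 and 133 CPM at 0 Gy and 6 h and at 32.8, 55.7, 89.6 and 26.5 CPM at 24 h, without overlap. It fell by 1.35 ± 0.33 at 0 Gy (adjusted p = 0.0443, edgeR) and by 0.94 ± 0.25 at 0.1 Gy (adjusted p = 0.0476, edgeR), and the value at 2 Gy was −0.74 ± 0.34 without the block (adjusted p = 0.24, edgeR). Osmr, the receptor subunit for oncostatin M, went the other way in mock-irradiated cells, from 45.2 to 84 CPM at 6 h and from 93.7 to 154 CPM at 24 h, but was not called (log2 fold change 0.88 ± 0.23, adjusted p = 0.0545, edgeR), nor at 0.1 Gy (0.39 ± 0.22, adjusted p = 0.309, edgeR) and 2 Gy (0.31 ± 0.21, adjusted p = 0.429, edgeR). Aspg had 0.633 to 3.55 CPM at 6 h and 2.28 to 3.98 CPM at 24 h after 0.1 Gy (0.91 ± 0.50, adjusted p = 0.282, edgeR) and 0.794 to 2.28 CPM and 1.7 to 4.05 CPM after 2 Gy (1.06 ± 0.39, adjusted p = 0.136, edgeR), with overlap. Steap4 had log2 fold changes from −1.81 to −1.28 over the doses with SE from 0.80 to 0.86 and was not called without the pairing.

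In the A1 class, Fkbp5, a co-chaperone of the glucocorticoid receptor, had 35.1, 24.8, 33.6 and 31.4 CPM at 0 Gy and 6 h and 14.1, 14.2, 20 and 15.7 CPM at 24 h. Every library at 6 h lay above every library at 24 h, and the same held at 0.1 and 2 Gy. It fell by 0.98 ± 0.17 at 0 Gy (adjusted p = 0.0152, edgeR), by 0.79 ± 0.14 at 0.1 Gy (adjusted p = 0.0131, edgeR) and by 0.86 ± 0.15 at 2 Gy (adjusted p = 0.0144, edgeR). Ggta1, a galactosyltransferase, moved in the opposite direction, from 121, 104, 150 and 141 CPM to 190, 196, 247 and 267 CPM at 0 Gy. It rose by 0.79 ± 0.17 at 0 Gy (adjusted p = 0.027, edgeR), by 0.79 ± 0.15 at 0.1 Gy (adjusted p = 0.0161, edgeR) and by 0.83 ± 0.19 at 2 Gy (adjusted p = 0.0378, edgeR), and its times overlapped at no dose. Amigo2 had 0.899 to 1.1 CPM at 6 h and 1.38 to 2.52 CPM at 24 h after 2 Gy without overlap and a log2 fold change of 0.98 ± 0.27, but it was not called (adjusted p = 0.0631, edgeR). Its values were 0.33 ± 0.26 at 0 Gy (adjusted p = 0.477, edgeR) and 0.20 ± 0.26 at 0.1 Gy (adjusted p = 0.687, edgeR). Iigp1 was above 0 with errors of similar size, at 0.74 ± 0.68 (adjusted p = 0.544, edgeR), 0.57 ± 0.74 (adjusted p = 0.69, edgeR) and 0.45 ± 0.75 (adjusted p = 0.783, edgeR) for 0, 0.1 and 2 Gy.

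In the A2 class, Emp1 had 272, 463, 453 and 236 CPM at 0.1 Gy and 6 h and 170, 222, 162 and 129 CPM at 24 h. It fell by 1.08 ± 0.26 at 0.1 Gy (adjusted p = 0.0334, edgeR) and by 1.15 ± 0.23 at 2 Gy (adjusted p = 0.0244, edgeR), with no overlap of the times at either dose. Tm4sf1 had 99.6, 96, 90.1 and 78.3 CPM at 0 Gy and 6 h and 55, 57.2, 47.3 and 41.2 CPM at 24 h, also without overlap. It fell by 0.87 ± 0.15 at 0 Gy (adjusted p = 0.0128, edgeR) and by 0.72 ± 0.17 at 0.1 Gy (adjusted p = 0.0327, edgeR), and the value at 2 Gy was −0.52 ± 0.18 without the block (adjusted p = 0.114, edgeR). Sphk1 ranged from 10.9 to 36 CPM at 6 h and from 1.88 to 9.55 CPM at 24 h in mock-irradiated cells without overlap, but it was not called without the block (−1.94 ± 0.51, adjusted p = 0.0547, edgeR). Ptx3 at 2 Gy, with 20.8 to 99 CPM at 6 h and 10.1 to 46.1 CPM at 24 h, gave −1.38 ± 0.56 without the block (adjusted p = 0.175, edgeR). B3gnt5 at 0 Gy, with 13.7 to 18.8 CPM at 6 h and 15.8 to 40.7 CPM at 24 h, gave 0.76 ± 0.30 (adjusted p = 0.156, edgeR).

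**Figure D2:**
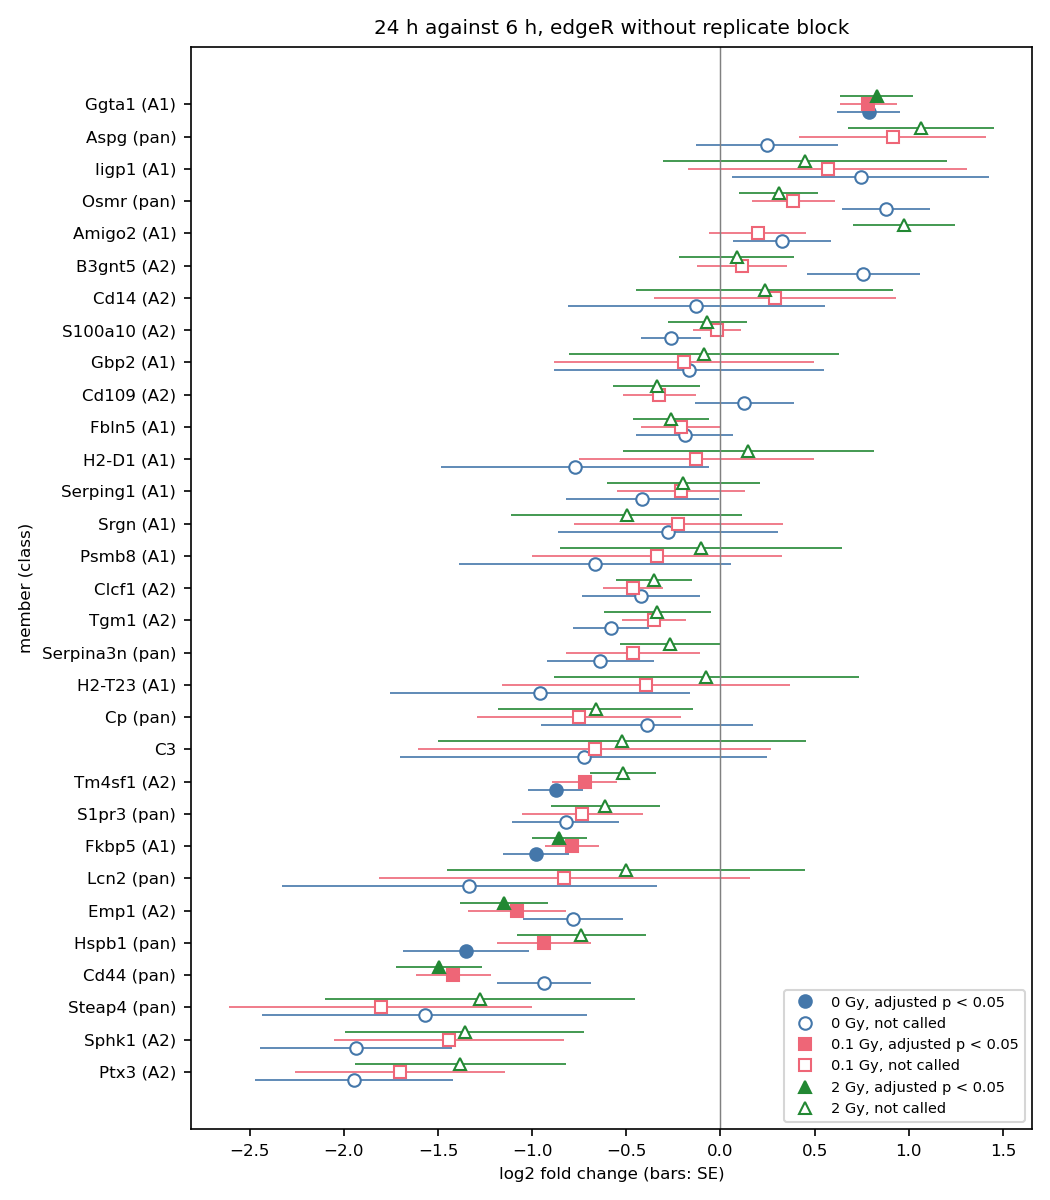
Log2 fold change from 6 h to 24 h (horizontal axis, bars are SE) of the 31 members tested in the unpaired edgeR fit, with circles for 0 Gy, squares for 0.1 Gy and triangles for 2 Gy, filled at an adjusted p under 0.05. Ggta1 lies above 0 and Fkbp5 below 0 with filled symbols at each dose, while the bars of C3 cross 0 at each dose.

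Counted by overlap alone, 2 members were higher in all libraries at 24 h than in all libraries at 6 h at 0 Gy (7.82% of all genes), 1 at 0.1 Gy (9.6%) and 2 at 2 Gy (8.74%). In the same way, 4 members were lower at 0 Gy (7.44% of all genes), 5 at 0.1 Gy (9.38%) and 3 at 2 Gy (9.36%). The plot of fold changes with time shows that C3, Lcn2, H2-D1, Gbp2, Cd14 and Iigp1, which were among the genes lowest in replicate 2, had wide errors, with SE between 0.63 and 1 on the log2 scale. The unpaired count depended on single libraries. At 0 Gy it was 0 without replicate 1 at 6 h (1.04% of all genes) or replicate 4 at 24 h (1.32%), 1 without replicate 3 at 6 h (1.74%) or replicate 1 at 24 h (1.21%), and 10 without replicate 3 at 24 h (18.6%). At 0.1 Gy it was 1 without replicate 1 or 3 at 6 h (3.22% and 3.64% of all genes), 2 without replicate 4 at 24 h (3.35%) and 3 without replicate 1 or 3 at 24 h (7.79% and 4.47%). At 2 Gy it was 1 without replicate 1 or 3 at 6 h (1.53% and 1.36%) or replicate 1 at 24 h (2.03%) and 2 without replicate 2 at 6 h (3.82%) or replicate 4 at 24 h (1.55%). Without the libraries of replicate 2 in all groups, it was 10 at 0 Gy (7.44% of all genes), 11 at 0.1 Gy (14.4%) and 6 at 2 Gy (7.33%).

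Libraries of one number deviated together at 0.1 and 2 Gy, although number 3 at 0.1 Gy did so less clearly. Its library at 24 h (correlation 0.389 with its own number) correlated more with a 6 h library of another number. With the number as a block, 17 members were called at 0.1 Gy (25.7% of all genes) and 15 at 2 Gy (19.2%). At 0.1 Gy, 3 were higher (11.8% of all genes) and 14 lower (14%), and at 2 Gy, 3 were higher (8.82%) and 12 lower (10.4%). Of the 9 pan-reactive genes, 9 were called at 0.1 Gy, Aspg and Osmr higher and the other 7 lower, and 6 at 2 Gy, Aspg higher and the other 5 lower. Without 1 number, the adjusted p at 0.1 Gy reached 0.0708 for Aspg and 0.211 for Osmr (edgeR). It also reached 0.109 for Lcn2, 0.16 for Serpina3n and 0.0798 for S1pr3 (edgeR), while Cd44, Hspb1, Cp and Steap4 stayed under 0.05. At 2 Gy, it reached 0.173 for Aspg and 0.141 for S1pr3 (edgeR). At 2 Gy, the block called Hspb1 (−0.77 ± 0.19, adjusted p = 0.0234, edgeR), Tm4sf1 (−0.51 ± 0.13, adjusted p = 0.0237, edgeR) and Amigo2 (0.96 ± 0.25, adjusted p = 0.0304, edgeR), each of which lost the call in a fit without 1 number (highest adjusted p = 0.117, 0.131 and 0.134, edgeR). Ptx3 fell by 1.57 ± 0.28 at 0.1 Gy and by 1.32 ± 0.23 at 2 Gy, Steap4 by 1.60 ± 0.29 and 1.36 ± 0.17, Sphk1 by 1.71 ± 0.21 and 1.62 ± 0.25, and C3 by 0.58 ± 0.12 (adjusted p = 0.00758, edgeR) and 0.51 ± 0.13 (adjusted p = 0.0283, edgeR), where without 1 number the adjusted p at 2 Gy reached 0.133. At both doses these 4 genes were lower at 24 h in 4 of 4 pairs. Without number 1, 2, 3 and 4, the blocked count was 14, 13, 18 and 12 at 0.1 Gy (23.6%, 18.3%, 19.8% and 13.4% of all genes) and 8, 8, 20 and 7 at 2 Gy (9.03%, 11%, 30.1% and 5.5%). The summed microglial markers at 24 h were 0.748, 1.05, 0.985 and 1.02 times those at 6 h at 0.1 Gy and 0.805, 0.898, 1.12 and 0.88 times at 2 Gy in replicates 1 to 4. Mitochondrial transcripts took 1.36, 2.56, 3.47 and 2.14% of counts at 6 h and 1.47, 2.57, 2.26 and 2.21% at 24 h at 0.1 Gy. At 2 Gy, they took 1.49, 4.22, 2.93 and 3.62% at 6 h and 0.947, 2.09, 1.91 and 2.18% at 24 h. The part of either in the fall of C3 and the other calls was not tested.

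Several signals that act upstream of these genes were also lower at 24 h, and those named here were chosen after their values were seen. Of 33 cytokines, receptors and transducers of the response, 31 were tested, and the unpaired test called 4 lower at 0 Gy (3.46% of all genes), 4 lower (5.33%) and 1 higher (4.57%) at 0.1 Gy and 2 lower at 2 Gy (3.92%). Il6 had 19.8, 6.12, 26.4 and 4.8 CPM at 0 Gy and 6 h and 0.793, 1.21, 0.918 and 0.418 CPM at 24 h, and fell by 4.09 ± 0.62 on the log2 scale (adjusted p = 0.00907, edgeR). Lif, a cytokine of the same family, fell by 1.95 ± 0.36 (adjusted p = 0.0182, edgeR). Both were called lower at all 3 doses, and Nfkbia, the inhibitor of NF-kB, and Cntfr, the receptor for ciliary neurotrophic factor, at 0 and 0.1 Gy. Of the 7 genes of the published panel that are no members, 6 were tested, and Ptgs2 and Cxcl10 were called lower at 24 h at each dose.

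Exposure to X-rays moved no member beyond the spread between libraries in the unpaired test. For 0.1 Gy and for 2 Gy against 0 Gy, at 6 h and at 24 h, and for 2 Gy against 0.1 Gy, 0 of 31 members were called by edgeR, and the background was 0 as well, since 0% of all genes were called in any of these comparisons. At an unadjusted p under 0.05, there was 1 member for 2 Gy at 6 h (Fkbp5, 1.34% of all genes), 1 for 2 Gy against 0.1 Gy at 6 h (Amigo2, 0.743%) and 0 in the other comparisons (0.15% to 3.59%), and DESeq2 called 0 members in each of them. No member had groups without overlap between a dose and 0 Gy, against 0.375% of all genes for 0.1 Gy and 1.17% for 2 Gy at 6 h, and 1.11% and 2.95% at 24 h. Only between 2 Gy and 0.1 Gy at 6 h did 1 member not overlap (0.448% of all genes were lower in this way), namely Amigo2 with 0.899 to 1.1 CPM after 2 Gy and 1.22 to 1.81 CPM after 0.1 Gy (log2 fold change −0.57 ± 0.22, adjusted p = 1, edgeR). For C3 at 24 h, the unpaired log2 fold change was 0.10 ± 0.94 at 0.1 Gy and 0.20 ± 0.95 at 2 Gy, so that at this spread only a large change of C3 could have been called.

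Since libraries of one replicate number deviated together from their group means in all dose comparisons, the number was also used as a block, which compares each irradiated library with the mock-irradiated library of its number. At 6 h, the blocked test called 0 members at either dose (0% of all genes), with 1 member at an unadjusted p under 0.05 for 0.1 Gy (3.97% of all genes) and 3 for 2 Gy (6.88%). At 24 h, it called 5 members for 0.1 Gy, 16.1% of those tested against 6.84% of all genes, and 6 for 2 Gy, 19.4% against 13.2% of all genes. For 0.1 Gy, 3 members were higher (2.34% of all genes) and 2 lower (4.5%), and for 2 Gy, 4 were higher (6.53%) and 2 lower (6.69%). Both doses were compared with the same 4 mock-irradiated libraries, so their calls are not independent. Whether the share of members differed from that of all genes was not tested.

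In the blocked test, both MHC class I members rose 24 h after exposure, although neither was called without the block (adjusted p from 0.94 to 0.974, edgeR). They lie on chromosome 17 of mm10, H2-D1 at 35262730 to 35267499 on the plus strand and H2-T23 at 36029773 to 36032855 on the minus strand. H2-D1 had 170, 48, 513 and 347 CPM in replicates 1 to 4 of mock-irradiated cells at 24 h, 292, 88.1, 613 and 567 CPM after 0.1 Gy and 344, 82, 799 and 466 CPM after 2 Gy. Each irradiated library exceeded its mock-irradiated partner, although the groups overlapped broadly. The blocked log2 fold change was 0.64 ± 0.11 at 0.1 Gy (adjusted p = 0.0262, edgeR) and 0.72 ± 0.11 at 2 Gy (adjusted p = 0.0104, edgeR).

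H2-T23 had 15.1, 2.51, 36.3 and 34 CPM at 0 Gy, 21.5, 4.22, 39.9 and 53.3 CPM after 0.1 Gy and 24.1, 3.97, 67.7 and 41.7 CPM after 2 Gy. Again all 4 pairs were higher at both doses, with a log2 fold change of 0.46 ± 0.12 (adjusted p = 0.0382, edgeR) and 0.63 ± 0.12 (adjusted p = 0.0177, edgeR). H2-D1 and H2-T23 belong to a family of related genes, and whether reads were shared between its members in the counting was not tested. In a block over all 24 libraries, neither was called at 0.1 Gy (adjusted p = 0.0542 and 0.0613, edgeR), and without replicate 2 neither was called at either dose. After the correction for GC content and length, H2-T23 was called at neither dose. Its unpaired log2 fold change at 0.1 Gy was −0.031 without the irradiated replicate 4. The summed microglial markers were 1.0 to 1.23 times those of the mock-irradiated partner after 0.1 Gy and 1.03 to 1.21 times after 2 Gy in the same pairs, and their part in this rise was not tested. The other 9 A1 genes were not called at either dose, with Gbp2 at −0.01 ± 0.09 and 0.15 ± 0.10 and Psmb8 at 0.25 ± 0.11 and 0.21 ± 0.12. Fbln5, a protein of elastic fibers, gave −0.03 ± 0.10 and −0.10 ± 0.10, and Fkbp5, Ggta1, Iigp1, Serping1, Srgn and Amigo2 lay between −0.09 and 0.19 at 0.1 Gy and between −0.17 and 0.39 at 2 Gy.

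Of the pan-reactive genes, Serpina3n, a secreted inhibitor of serine proteases, had 127, 126, 70 and 71.3 CPM at 0 Gy, 153, 140, 93 and 78.6 CPM after 0.1 Gy and 162, 162, 111 and 90.4 CPM after 2 Gy. Its level was higher in every pair, and it was called for 2 Gy (0.43 ± 0.09, adjusted p = 0.0234, edgeR) but not for 0.1 Gy (0.23 ± 0.09, adjusted p = 0.108, edgeR). Cd44 was lower in every pair, with 329, 497, 290 and 261 CPM at 0 Gy, 313, 329, 242 and 200 CPM after 0.1 Gy and 280, 355, 183 and 200 CPM after 2 Gy. It fell by 0.34 ± 0.10 (adjusted p = 0.049, edgeR) and by 0.44 ± 0.10 (adjusted p = 0.026, edgeR). The call at 0.1 Gy was lost in the block over all 24 libraries (adjusted p = 0.062, edgeR), and without 1 number the adjusted p reached 0.277 at 0.1 Gy and 0.153 at 2 Gy (edgeR), where that of Serpina3n reached 0.136. After the correction for GC content, Cd44 gave −0.15 ± 0.07 and −0.22 ± 0.07 without a call (adjusted p = 0.274 and 0.135, edgeR). Lcn2 was not called, with 0.36 ± 0.11 at 0.1 Gy (adjusted p = 0.0619, edgeR) and 0.34 ± 0.11 at 2 Gy (adjusted p = 0.0655, edgeR). Nor were Hspb1 (0.37 ± 0.15 and 0.42 ± 0.13), Aspg (0.55 ± 0.20 and 0.48 ± 0.22), Osmr (−0.30 ± 0.11 and −0.30 ± 0.09), S1pr3, Steap4 and Cp.

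Within the A2 class, B3gnt5, a glycosyltransferase of glycolipid synthesis, had 38.3, 40.7, 15.8 and 20.9 CPM at 0 Gy, 28.6, 25.5, 15.3 and 14.5 CPM after 0.1 Gy and 23.6, 25.6, 9.04 and 15.8 CPM after 2 Gy. It was lower in every pair and fell by 0.43 ± 0.11 (adjusted p = 0.0383, edgeR) and by 0.64 ± 0.10 (adjusted p = 0.0109, edgeR). At 0.1 Gy it was not called in the block over all 24 libraries (adjusted p = 0.0569, edgeR), without 1 number the adjusted p reached 0.249 and 0.106 (edgeR), and after the correction for GC content it gave −0.15 ± 0.08 and −0.31 ± 0.08 without a call (adjusted p = 0.364 and 0.0819, edgeR). Cd14 had 61.2, 10.2, 80.8 and 105 CPM at 0 Gy, 67, 14, 85.2 and 136 CPM after 0.1 Gy and 71.6, 14, 122 and 129 CPM after 2 Gy. All of its pairs were higher, and it was called for 2 Gy (0.39 ± 0.10, adjusted p = 0.0322, edgeR), while 0.1 Gy gave 0.24 ± 0.10 (adjusted p = 0.136, edgeR). Without 1 number, its adjusted p at 2 Gy reached 0.164, and after the correction it was 0.119 (edgeR).

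Ptx3, a soluble pattern recognition receptor, had 16.5, 9.31, 38.5 and 19.4 CPM at 0 Gy, 20.4, 12.4, 49.7 and 25.6 CPM after 0.1 Gy and 20.4, 10.1, 46.1 and 19.9 CPM after 2 Gy. It was called for 0.1 Gy (0.36 ± 0.10, adjusted p = 0.0451, edgeR) and not for 2 Gy (0.18 ± 0.10, adjusted p = 0.232, edgeR), with 4 of 4 pairs higher in each. The call at 0.1 Gy was lost in the block over all 24 libraries (adjusted p = 0.0542, edgeR), after the correction for GC content (0.30 ± 0.08, adjusted p = 0.0598, edgeR) and without 1 number (highest adjusted p = 0.246, edgeR). Emp1 was not called in this fit (−0.23 ± 0.08 and −0.37 ± 0.11), although lower in 4 of 4 pairs at both doses. The block over all 24 libraries called it for 2 Gy (−0.37 ± 0.10, adjusted p = 0.0153, edgeR), and after the GC correction it was −0.19 ± 0.08 (adjusted p = 0.238, edgeR). Also not called were Cd109, S100a10, Sphk1, Tgm1, a transglutaminase, Clcf1, a cytokine of the interleukin 6 family, and Tm4sf1, which lay between −0.30 and 0.27. The blocked difference between 2 Gy and 0.1 Gy at 24 h was −0.18 ± 0.10 for Ptx3 (adjusted p = 1, edgeR), and the blocked test of 2 Gy against 0.1 Gy called 0 members at 24 h (0% of all genes) and at 6 h (0.0553%), with 2 and 8 members at an unadjusted p under 0.05 (4.94% and 4.68% of all genes). C3 was not called at 24 h in the blocked fit, with 0.19 ± 0.10 at 0.1 Gy and 0.19 ± 0.09 at 2 Gy (adjusted p = 0.245 and 0.168, edgeR).

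**Figure D3:**
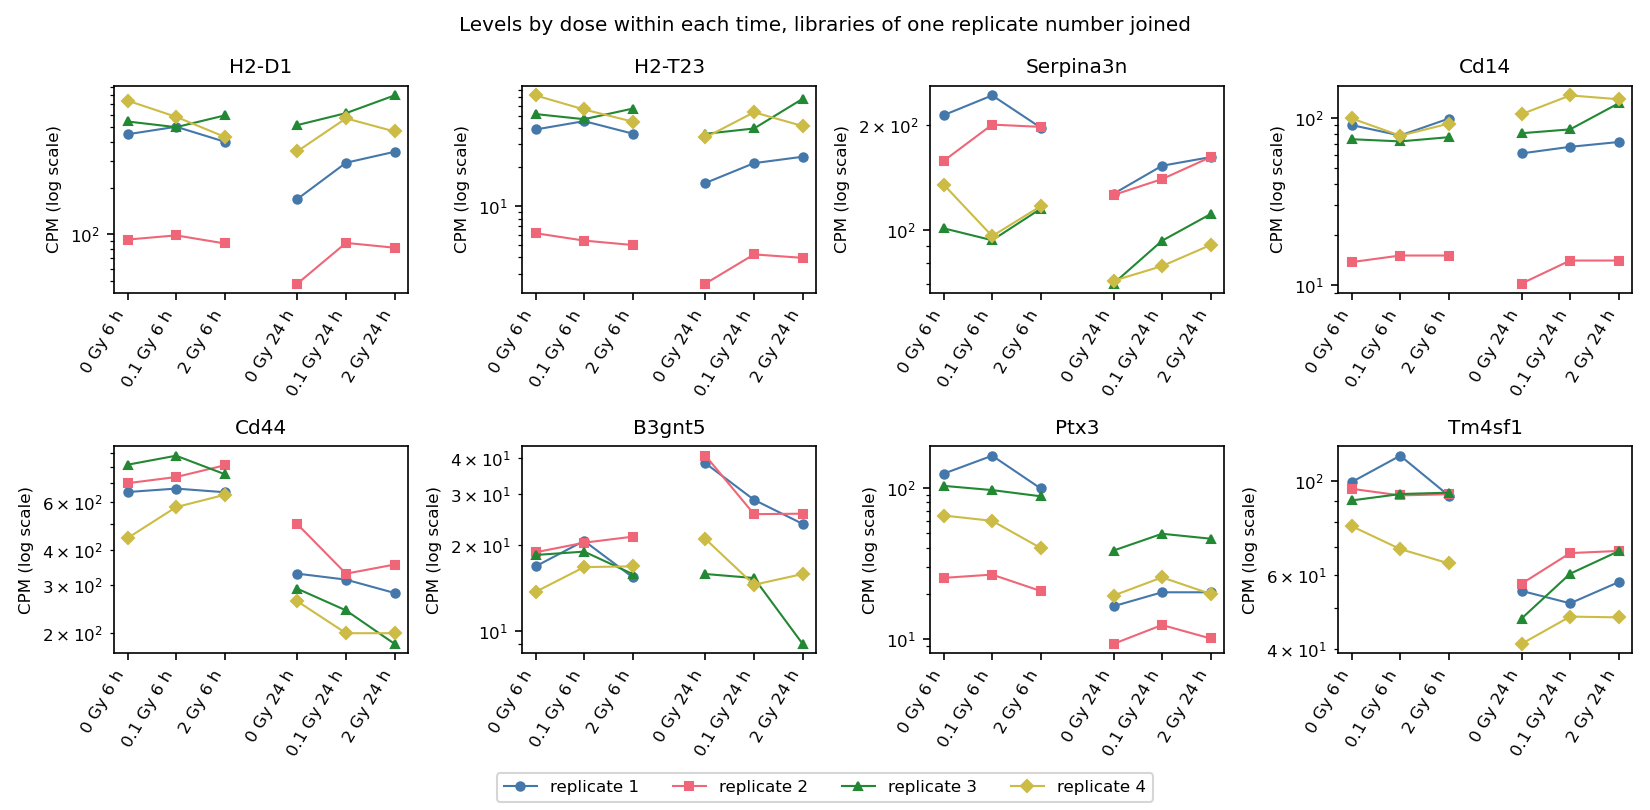
Level of 8 members (vertical axis, CPM on a log scale) by dose at 6 h (left) and 24 h (right), with the libraries of one replicate number joined by a line. At 24 h the value at 2 Gy lies above that at 0 Gy on all 4 lines for H2-D1, H2-T23, Serpina3n, Cd14, Ptx3 and Tm4sf1 and below it for Cd44 and B3gnt5, some lines turn at 0.1 Gy, and the line of replicate 2 lies far below the others for H2-D1, H2-T23 and Cd14.

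The plot of joined libraries holds members chosen for their calls. Over all 31 members, 10 were higher (16.3% of all genes) and 3 lower (16.2%) in 4 of 4 pairs at 24 h for 0.1 Gy, and 9 were higher (20%) and 4 lower (21.9%) for 2 Gy. At 6 h, 3 were higher (7.57% of all genes) and 0 lower (6.65%) for 0.1 Gy, and 2 were higher (8.77%) and 3 lower (8.55%) for 2 Gy. The median blocked log2 fold change at 24 h was 0.14 for 0.1 Gy and 0.16 for 2 Gy, and that of all genes lay within 0.01 of 0. By class, the medians for 2 Gy were 0.19 in the pan-reactive genes, 0.15 in the A1 genes and 0.16 in the A2 genes.

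**Figure D4:**
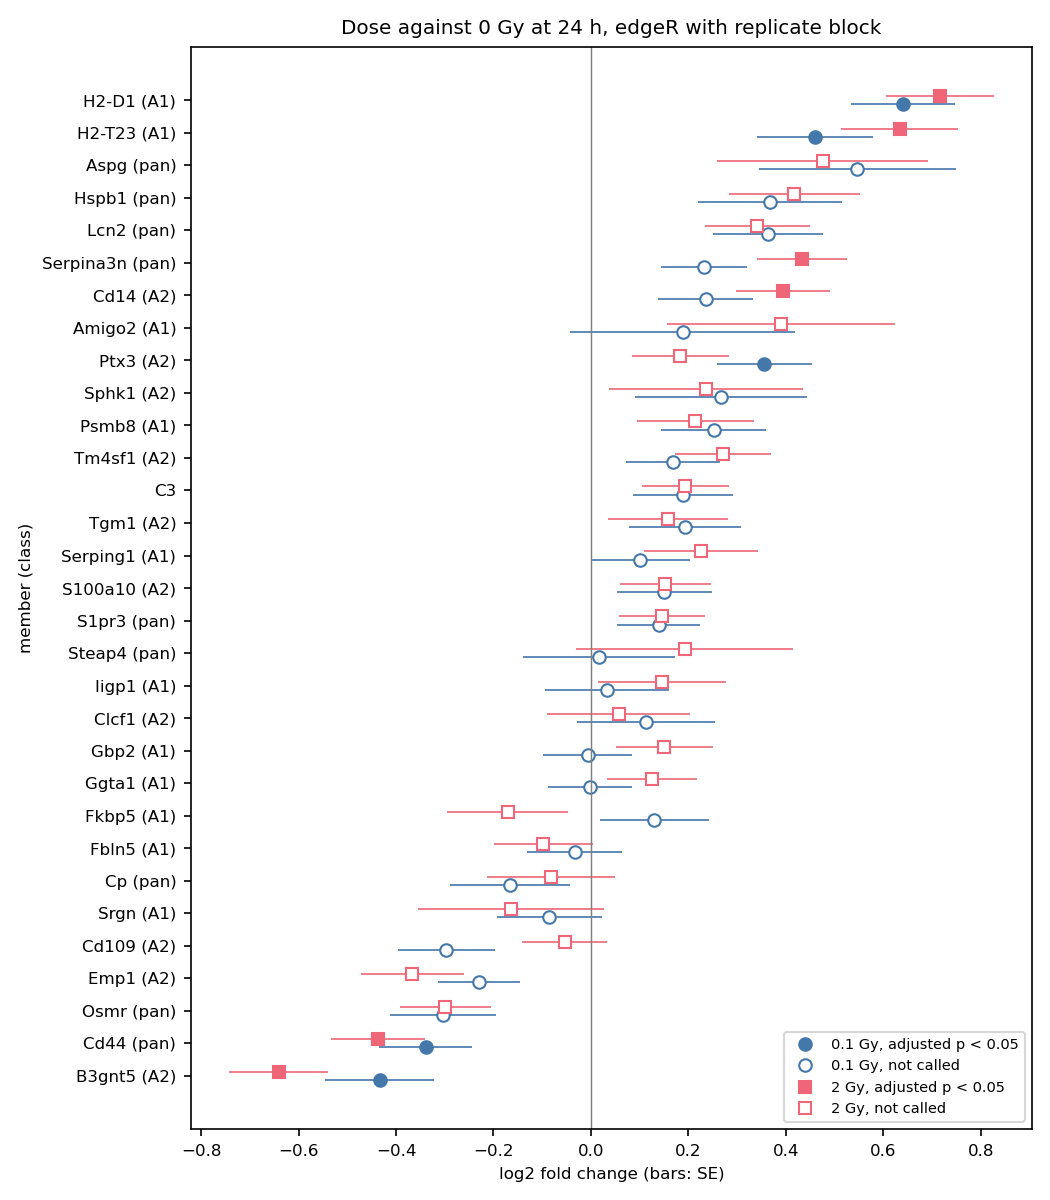
Log2 fold change at 24 h against 0 Gy (horizontal axis, bars are SE) of the 31 members tested in edgeR with the replicate block, with circles for 0.1 Gy and squares for 2 Gy, filled at an adjusted p under 0.05. H2-D1 and H2-T23 lie near the upper end and B3gnt5 and Cd44 at the lower end with filled symbols for both doses, and most other members have open symbols on the side above 0.

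The difference between the response to 2 Gy at 24 h and at 6 h was tested as an interaction. Without the block, 0 members and 0% of all genes were called by edgeR, 0 members were at an unadjusted p under 0.05 (4.9% of all genes), and DESeq2 called 0 members. With the block, 5 members were called (6.78% of all genes). The response at 24 h exceeded that at 6 h for H2-D1 (0.95 ± 0.19 on the log2 scale, adjusted p = 0.0335, edgeR), H2-T23 (0.87 ± 0.19, adjusted p = 0.0382, edgeR) and Ptx3 (0.58 ± 0.14, adjusted p = 0.0404, edgeR), and lay below it for B3gnt5 (−0.66 ± 0.15, adjusted p = 0.0399, edgeR) and Cd44 (−0.58 ± 0.15, adjusted p = 0.0427, edgeR). The 3 higher members compare with 3.55% of all genes and the 2 lower with 3.23%. At 6 h itself, 2 Gy gave −0.22 ± 0.14 for H2-D1, −0.23 ± 0.13 for H2-T23, −0.39 ± 0.10 for Ptx3, 0.03 ± 0.11 for B3gnt5 and 0.15 ± 0.11 for Cd44, none of them called.

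The count of blocked calls at 24 h changed with the replicate number left out, for the members and for all genes. For 0.1 Gy, leaving out number 1, 2, 3 or 4 gave 2, 0, 13 and 0 called members (7.18%, 0.13%, 23.2% and 0.0987% of all genes). For 2 Gy, it gave 0, 0, 13 and 3 (0.892%, 0.432%, 33.1% and 1.54% of all genes), and for the interaction 0, 0, 11 and 2 (0%, 0%, 23.4% and 0.814%). Without replicate 2, the number low in microglial markers, no call remained. At 2 Gy, H2-D1 gave 0.69 ± 0.14, H2-T23 0.62 ± 0.14, Serpina3n 0.45 ± 0.12, Cd14 0.37 ± 0.12, Cd44 −0.43 ± 0.13 and B3gnt5 −0.64 ± 0.13 (adjusted p from 0.106 to 0.164, edgeR). At 0.1 Gy, H2-D1 gave 0.56 ± 0.12, H2-T23 0.40 ± 0.13, Ptx3 0.33 ± 0.12, Cd44 −0.26 ± 0.11 and B3gnt5 −0.36 ± 0.13 (adjusted p from 0.0747 to 0.277, edgeR). The summed microglial markers at 24 h were 1.23, 1.22, 1.0 and 1.17 times those of mock-irradiated cells after 0.1 Gy and 1.21, 1.1, 1.21 and 1.03 times after 2 Gy in replicates 1 to 4. Of the 14 markers, the blocked test called 2 higher for 0.1 Gy (C1qc and Trem2, 2.34% of all genes) and, for 2 Gy, 2 higher (C1qa and Trem2, 6.53%) and 1 lower (P2ry12, 6.69%). Their part in the higher level of Cd14 was likewise not tested.

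Shares of counts that can reflect RNA quality also differed between doses at 24 h. Mitochondrial transcripts took 2.17, 4.97, 1.9 and 3.65% of counts in replicates 1 to 4 at 0 Gy, 1.47, 2.57, 2.26 and 2.21% after 0.1 Gy and 0.947, 2.09, 1.91 and 2.18% after 2 Gy. The share was lower than in the mock-irradiated partner in all pairs but that of replicate 3. Gm42418, a transcript that overlaps ribosomal RNA sequence, took 10.4, 4.35, 3.9 and 0.886% at 0 Gy, 5.19, 1.6, 0.707 and 1.04% after 0.1 Gy and 7.13, 7.3, 0.364 and 2.29% after 2 Gy. It was lower in replicates 1 to 3 after 0.1 Gy and in replicates 1 and 3 after 2 Gy. The part of either in the blocked calls of H2-D1, H2-T23 and the other members was not tested.

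Base composition also moved with these values. The GC content of the longest transcript ranged from 38.6% for B3gnt5 to 61.7% for Hspb1, with 44.5% for Cd44, 54.5% for H2-T23 and 55.9% for H2-D1. Across the 31 members, which come from the same libraries and are not independent, the correlation of GC content with the blocked log2 fold change at 24 h was 0.77 for 0.1 Gy and 0.634 for 2 Gy, and across all genes it was 0.585 and 0.561. At 6 h, it was −0.633 and −0.658 across the members and −0.347 and −0.371 across all genes.

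With a correction for GC content and transcript length in the blocked fit, the called members at 24 h changed. For 0.1 Gy, 2 were called (1.87% of all genes), H2-D1 with 0.44 ± 0.07 (adjusted p = 0.0116, edgeR) and Tm4sf1 with 0.32 ± 0.08 (adjusted p = 0.0478, edgeR). For 2 Gy, 3 were called (3.55% of all genes), H2-D1 with 0.49 ± 0.09 (adjusted p = 0.0258, edgeR), Serpina3n with 0.30 ± 0.07 (adjusted p = 0.0484, edgeR) and Tm4sf1 with 0.46 ± 0.08 (adjusted p = 0.0239, edgeR). Tm4sf1 had 55, 57.2, 47.3 and 41.2 CPM at 0 Gy, 51.4, 67.6, 60.4 and 47.8 CPM after 0.1 Gy and 57.7, 68.4, 68.3 and 47.6 CPM after 2 Gy, so that the groups overlapped. Without the correction, it was called for 2 Gy in the block over all 24 libraries (0.27 ± 0.09, adjusted p = 0.0362, edgeR). H2-T23 (0.47 ± 0.11, adjusted p = 0.0508, edgeR), B3gnt5 (−0.31 ± 0.08, adjusted p = 0.0819, edgeR), Cd14 (0.22 ± 0.07, adjusted p = 0.119, edgeR) and Cd44 (−0.22 ± 0.07, adjusted p = 0.135, edgeR) kept their direction at 2 Gy without a call. H2-D1 was called at 24 h for both doses with and without this correction, but its blocked adjusted p reached 0.0923 at 0.1 Gy and 0.106 at 2 Gy when 1 number was left out (edgeR).

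**Figure D5:**
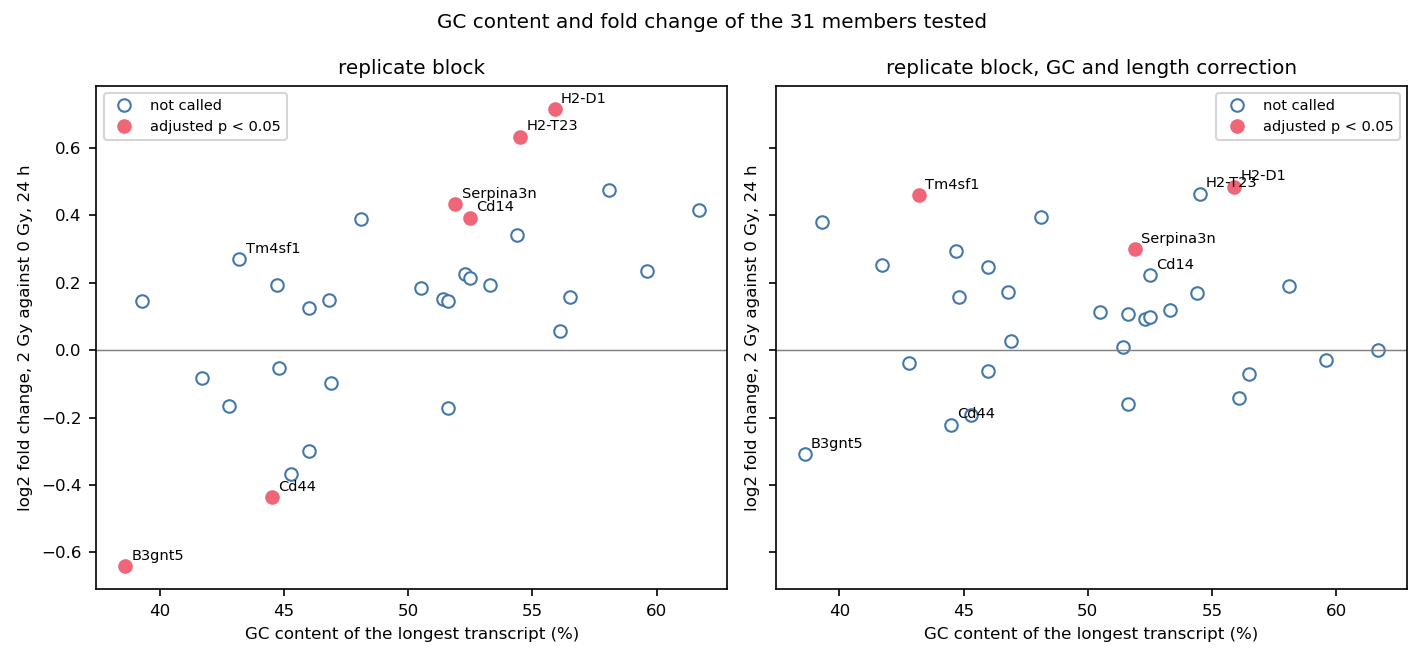
Blocked log2 fold change of 2 Gy against 0 Gy at 24 h (vertical axis) against the GC content of the longest transcript (horizontal axis, percent) for the 31 members tested, before (left) and after (right) the correction for GC content and length, with filled points at an adjusted p under 0.05. The points rise from B3gnt5 at 38.6% GC to H2-D1 at 55.9% on the left (r = 0.634), and on the right they show no slope (r = 0.0146) with Tm4sf1, Serpina3n and H2-D1 filled.

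The plot against GC content shows B3gnt5 and Cd44 among the members with less GC and H2-D1 and H2-T23 among those with more. The correction fits GC content, so a smaller slope was built into it. Across the 31 members, the correlation left after it was 0.243 for 0.1 Gy at 24 h, −0.363 for 2 Gy at 6 h and 0.248 for the interaction. After the correction, the interaction called H2-D1, H2-T23, Ptx3 and Tm4sf1, all higher (2.4% of all genes), and 2 Gy at 6 h called Ptx3, which fell by 0.37 ± 0.07 (adjusted p = 0.0405, edgeR, 0.719% of all genes). It was also called for 2 Gy against 0.1 Gy at 6 h (−0.47 ± 0.08, adjusted p = 0.0186, edgeR, 0.633% of all genes). Ptx3 had 124, 25.4, 103 and 65.6 CPM at 0 Gy and 6 h and 99, 20.8, 87.9 and 40 CPM after 2 Gy, lower in all 4 pairs with groups that overlapped.

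Of the 31 signals, receptors and transducers tested, the blocked test at 24 h called 1 higher (C1qc, 2.34% of all genes) and 2 lower (4.5%) for 0.1 Gy and 3 higher (C1qa among them, 6.53%) and 2 lower (6.69%) for 2 Gy, and both C1q genes are also in the list of microglial markers. Il1r1, the receptor for interleukin 1, fell by 0.38 ± 0.11 for 0.1 Gy (adjusted p = 0.0481, edgeR) and by 0.61 ± 0.14 for 2 Gy (adjusted p = 0.0266, edgeR), and Nr3c1, the glucocorticoid receptor, fell by 0.35 ± 0.09 for 0.1 Gy (adjusted p = 0.0382, edgeR). Cntf, ciliary neurotrophic factor, rose by 0.75 ± 0.14 for 2 Gy (adjusted p = 0.0167, edgeR), from 4.01, 3.21, 7.27 and 5.54 CPM to 7.15, 6.6, 10.3 and 8.79 CPM. Socs3, a feedback inhibitor of cytokine signaling, rose by 0.38 ± 0.09 and Jak2, a kinase of the pathway, fell by 0.43 ± 0.10. With the correction for GC content, none of Il1r1, Nr3c1, Cntf, Socs3, C1qa, C1qc and Jak2 was called in these comparisons, with Cntf at an adjusted p of 0.0508 (edgeR) for 2 Gy.

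Among the panel genes that are no members, the blocked test called Gfap, the intermediate filament of astrocytes, higher for 2 Gy at 24 h (0.36 ± 0.10, adjusted p = 0.0426, edgeR) with 400, 409, 513 and 410 CPM at 0 Gy and 497, 482, 797 and 488 CPM after 2 Gy. Ptgs2, which encodes cyclooxygenase 2, fell by 0.53 ± 0.11 for 0.1 Gy (adjusted p = 0.0262, edgeR) and by 0.68 ± 0.19 for 2 Gy (adjusted p = 0.0445, edgeR). Neither gene was called after the correction for GC content and length. For 0.1 Gy, Gfap gave 0.28 ± 0.08 (adjusted p = 0.0588, edgeR).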

How the data were processed

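The authors deposited raw counts per gene, whole numbers without normalization, in 1 table for each of the 24 libraries (build mm10 per the submitters' processing notes). Reads were trimmed, mapped and counted by the sequencing company. Aligner, counting tool and the use of strand are not given in the sources used here, so exons that overlap a gene of the other strand (Cp, Gbp2, Psmb8, Amigo2 and Sphk1, at most 6.8% of the exon length) are uncertain.

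Counts were fitted in R 4.3.3 with edgeR 4.0.16 (TMM, filter on low counts, quasi-likelihood test) on the libraries compared, with Benjamini-Hochberg adjustment over all genes tested and a threshold of 0.05. The 10 comparisons were 3 of dose at each time, 3 of time and 1 interaction. Per-library log2 values used a prior count of 2. DESeq2 1.42.0, a replicate block, a correction for GC content and length (GENCODE M21 transcripts, splines with 5 degrees of freedom, 48970 genes matched) and leaving out libraries were alternatives. Fits with all 24 libraries and a block, and without replicate 2 in every group, were added after the data were seen. Members and lists were chosen with earlier results of these data known.

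All 32 members could be named. Full statistics are given for those called in a comparison of doses or the interaction in the fits on the libraries compared, with or without the block. They are also given for those without overlap. In comparisons of times, these were the 5 with the lowest adjusted p in each direction. The 3 highest and lowest levels per length, and called genes of the other lists in comparisons of doses, were also named.

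Same-numbered libraries deviated together across genes, with correlations from 0.539 to 0.927 in dose comparisons, from 0.386 at 0.1 Gy and from 0.255 at 2 Gy between times, but from only 0.0645 at 0 Gy. They were taken as pairs except between times at 0 Gy. Between times at 0.1 Gy, the pairing was kept although number 3 (0.389) did not correlate best with its own number. No library pair of a group agreed within sampling noise (lowest chi-square per degree of freedom 28.33). On counts simulated for 2 Gy at 24 h (15892 genes, 200 changed), the blocked fit recovered 36% of changes of 0.75 and 88% of changes of 1.5 on the log2 scale with 12 false calls, and the unpaired fit 0% and 19%. These counts were drawn with the replicate effects built in and without any shift of GC content with dose. The simulation therefore cannot gauge the false calls among the real pairs.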

Additional observations from a re-analysis of the deposited data

Results flagged for a closer look

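In 10 of 186 groups of 4 libraries, 1 library of a member lay farther from the other 3 than is usual for groups of this size, and chance alone flags about 5% of groups. In 6 of them the library was replicate 2 and low. These were Lcn2 at 0 Gy and 24 h (3.82 CPM), Cp at 0 Gy and 6 h (85.7 CPM), and at 0.1 Gy and 6 h Ggta1 (112 CPM), Gbp2 (9.99 CPM), Psmb8 (6.29 CPM) and Cd14 (15 CPM). The others were Osmr at 2 Gy and 24 h with a high replicate 4 (132 CPM), S100a10, a partner of annexin A2, with a low replicate 4 at 2 Gy and 6 h (81.6 CPM) and a high replicate 3 at 2 Gy and 24 h (145 CPM), and Tm4sf1 at 2 Gy and 6 h with a low replicate 4 (63.9 CPM).

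In 5 members, the response to 2 Gy differed between 24 h and 6 h in the blocked edgeR test of the interaction, by −0.58 for Cd44, 0.58 for Ptx3, −0.66 for B3gnt5, 0.95 for H2-D1 and 0.87 for H2-T23 on the log2 scale. No member was called in this test without the block.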

How the results depend on the processing

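Between a dose and 0 Gy, the unpaired count of called members stayed at 0 under DESeq2, the other scalings and filters and without any single library. With the replicate block it was 5 for 0.1 Gy and 6 for 2 Gy at 24 h and 5 for the interaction, with GC and length correction 2, 3 and 4 (and 1 for 2 Gy at 6 h and for 2 Gy against 0.1 Gy at 6 h), and with all 24 libraries and the block 0 for 0.1 Gy (0% of all genes) and 8 for 2 Gy (19.7%) at 24 h and 7 for the interaction (15.9%). Leaving out 1 number from the blocked fit gave 0 to 13 called for each dose at 24 h (0.0987% to 23.2% of all genes for 0.1 Gy and 0.432% to 33.1% for 2 Gy) and 0 to 11 for the interaction (0% to 23.4%). Between times, the count of 4 at 0 Gy (6.7% of all genes) was 8 with DESeq2 (12.1%), 7 without a filter (2.84%), 7 with all 24 libraries (14.3%), 1 with a minimum log2 fold change of 1 (3.55%), 17 with the block (15.3%), 18 with the block and correction (26.6%) and 10 without replicate 2 (7.44%), and from 0 to 10 without single libraries (1.04% to 18.6%) and 5 to 23 in the block without single numbers (3.71% to 45.4%). At 0 Gy, libraries of numbers 1, 2 and 4 deviated together between times (correlations 0.409, 0.824 and 0.517, each best with its own number) and those of number 3 did not (0.0645), so the block is given here as an alternative. Among its 17 calls were Sphk1 (−1.99 ± 0.23, adjusted p = 0.000673, edgeR) and Cd44 (−0.95 ± 0.18, adjusted p = 0.00727, edgeR). The count of 6 at 0.1 Gy (9.9%) was 2 with the minimum fold change (3.84%), 17 and 21 with the block without and with correction (25.7% and 36.1%), 11 without replicate 2 (14.4%), and from 1 to 7 (3.22% to 11.5%) and 12 to 18 (13.4% to 23.6%) without single libraries and numbers (14 without number 1). The count of 4 at 2 Gy (6.95%) was 2, 15, 18 and 6 (3.61%, 19.2%, 28.7% and 7.33%), and from 1 to 6 (1.36% to 11.4%) and 7 to 20 (5.5% to 30.1%). Directions reversed in the unpaired fit for H2-T23 at 0.1 Gy and 24 h, from −0.031 without the irradiated replicate 4 to 0.78 without single libraries, and for Ptx3 there, from −0.11 without the irradiated replicate 3 to 0.81. In the block, Iigp1 between times at 0.1 Gy was −0.063 without replicate 4. The block alone changed no call between doses at 6 h. Slc10a6, with at most 1 count, could not be tested at this depth. The cause of these shifts was not tested.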
